A study of Mus musculus with 4 samples.

Results

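The 10 genes Muc16, Wt1, Msln, Upk3b, Lrrn4, Bnc2, Krt8, Krt18, Krt19 and Epcam are used to recognise mesothelial cells and ovarian tumor cells. They were chosen by symbol and are 10 of the 32285 genes counted in every library. They were followed in barcodes called tumor-type here, which held at least 1000 genes and at least 3 UMIs (unique molecular identifiers, each standing for 1 captured transcript) of Zfpm2, Kcnd2 and Tenm3 together, within the upper limits of 4800 genes and 15% mitochondrial UMIs. None of the 10 genes took part in that rule. Of 133849 barcodes in all, 2992 were tumor-type, with 875 in siCont replicate 1, 113 in siCont replicate 2, 1571 in siFXR1-LNA replicate 1 and 433 in siFXR1-LNA replicate 2.

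The study placed Br-Luc cells, a mouse ovarian cancer line whose genotype is given as p53-/-, brca1-/-, myc and Akt-myr, into the peritoneal cavity of female FVB/NJ mice, whose immune system is intact, and asked how an siRNA against the RNA-binding protein gene Fxr1 changes tumor cells and the cells around them. Both groups carried the tumor line and received LNA-modified siRNA formulated with jetPEI, a control sequence in siCont and an Fxr1 sequence in siFXR1-LNA. Ascites was taken 6 weeks after the tumor cells were given, and ascites of 3 mice was pooled into each of 2 libraries per group. The spread between libraries is therefore a spread between pools, the tumor is a single line, and the host's own mesothelial cells shed into ascites can meet the same rule as the line.

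Mesothelium is the flat epithelium that lines the peritoneal cavity and covers its organs, and it shares a lineage with the ovarian surface. Its cells keep keratins of simple epithelium together with mesenchymal traits, and they carry the membrane mucin MUC16, the source of the serum marker CA-125, and its binding partner mesothelin. WT1 is a transcription factor of mesothelium that many serous ovarian tumors retain, so this group of genes does not by itself separate the tumor from the lining it grows on.

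The targeted gene was examined before the members. Fxr1, on chromosome 3, stood in tumor-type barcodes at 105 and 128 CPM (the UMIs of a gene scaled to the UMIs of all genes in the summed barcodes, in the usual CPM unit) in the libraries labelled siCont and at 137 and 135 CPM in those labelled siFXR1-LNA. The libraries labelled siFXR1-LNA were not lower in Fxr1 (0.27 on the log2 scale, SE 0.23, adjusted p = 0.524 in edgeR's quasi-likelihood fit), so the groups are called by their labels throughout. Values for the 4 libraries are given in the order siCont replicate 1, siCont replicate 2, siFXR1-LNA replicate 1, siFXR1-LNA replicate 2.

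Tumor-type barcodes had median depths of 5987, 8927, 5143 and 6554 UMIs. They made up 8.27%, 1.76%, 13.9% and 4.54% of the barcodes with at least 1000 genes, and the groups overlapped in this share (5.02% ± 4.61 against 9.21% ± 6.60, SD, n = 2 each, exact permutation test p = 0.667). Their leukocyte marker Ptprc stood at 78.4, 46.3, 34.0 and 44.8 CPM, against 464, 493, 188 and 240 CPM in macrophage barcodes. Macrophage markers summed to 809, 538, 364 and 488 CPM in them against 9535, 8628, 3576 and 4828 CPM in macrophage barcodes, and 41.0%, 29.2%, 21.7% and 32.1% of them held at least 3 UMIs of some immune marker list. Fibroblast markers summed to 568, 1260, 561 and 652 CPM there, and neutrophil markers to 19.5, 33.7, 361 and 396 CPM.

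Of the markers of serous or Müllerian epithelium, Pax8, Cdh1, Wfdc2, Sox17 and Pgr were sparse or not counted in these barcodes, while others were present. Pax8, a defining transcription factor of Müllerian epithelium, was at 0.668, 0, 0.107 and 0.610 CPM. The adhesion gene Cdh1 stood at 2.17, 2.89, 0.746 and 1.52 CPM, and no UMI of Wfdc2, Sox17 or Pgr was counted in the 4 libraries. The estrogen receptor gene Esr1 stood at 113, 85.8, 29.2 and 22.3 CPM, the homeobox gene Emx2 at 62.1, 39.5, 35.2 and 31.4 CPM and the folate receptor gene Folr1 at 42.6, 40.5, 30.4 and 32.3 CPM. Gata4 and Gata6, transcription factors of mesothelium and ovarian somatic cells, stood at 339, 397, 244 and 256 CPM and at 250.0, 276, 209 and 198 CPM. Whether the barcodes were cells of the line or host mesothelium was not tested.

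Bnc2 was the member that set tumor-type barcodes most apart from macrophage and shallow barcodes, and Muc16 and Wt1 followed it. These are also the longest members, at 400, 179 and 47.1 kb against 3.85 to 15.2 kb for the others. Zfpm2, Kcnd2 and Tenm3, the genes of the rule, span 450, 514 and 616 kb. Whether gene length bears on this order was not tested. Bnc2, a zinc-finger gene of mesothelium and ovarian epithelium (chr4:84275095-84675275, minus strand, mm10), stood at 924, 1098, 624 and 483 CPM in tumor-type barcodes and at 8.69, 2.02, 6.83 and 4.17 CPM in macrophage barcodes. All 4 tumor-type values lay above all values of the other types, and the difference from macrophages was 6.53 on the log2 scale (SE 0.50, adjusted p = 4.91e-05). Wt1 (chr2:105126529-105173616, plus strand) stood at 892, 1050, 1071 and 698 CPM against 45.7, 9.36, 63.9 and 37.6 CPM in macrophages (log2 difference 4.09, SE 0.51, adjusted p = 0.000362). Wt1 lies across its antisense gene Wt1os, and the sources used here do not say whether the counting used strand.

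Muc16, the membrane mucin (chr9:18495455-18674530, minus strand), stood at 288, 268, 76.4 and 61.3 CPM in tumor-type barcodes against 12.4, 2.41, 9.28 and 1.55 CPM in macrophages (log2 difference 4.17, SE 0.58, adjusted p = 0.000613). Msln, which encodes mesothelin (chr17:25748613-25754378, minus strand), stood at 24.2, 53.0, 36.9 and 43.9 CPM, from only 145, 55, 346 and 144 UMIs. Lrrn4, a leucine-rich repeat membrane gene expressed in mesothelium (chr2:132868305-132880891, minus strand), stood at 93.1, 71.3, 53.4 and 49.7 CPM.

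Upk3b, a uroplakin of the mesothelial surface (chr5:136038496-136046487, plus strand), stood at 422, 348, 155 and 146 CPM in tumor-type barcodes. In macrophage barcodes it stood at 106, 17.2, 69.0 and 34.7 CPM, a difference of 1.66 (SE 0.49, adjusted p = 0.0182). The simple-epithelium keratins Krt8 (chr15:101996698-102004482, minus strand), Krt18 (chr15:102028180-102032027, plus strand) and Krt19 (chr11:100140810-100148665, minus strand) were higher than in macrophages by 1.80, 1.68 and 1.90 on the log2 scale. Without siCont replicate 1 the differences of Upk3b (1.74, adjusted p = 0.0619) and Krt18 (1.67, adjusted p = 0.055) from macrophages no longer passed.

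Compared with macrophages, 10 of the 10 members were higher in tumor-type barcodes. The same test called 34.9% of all genes higher in that comparison. Against dendritic cell (DC) barcodes 9 members were higher, where 37.7% of genes were. Against T cells 8 were higher (32.1% of genes), against B cells 7 (32.4%), against neutrophils 6 (36.6%) and against barcodes left unassigned to an immune type 3 (28.3%). The count against neutrophils was 3 without siCont replicate 1 and 3 without siFXR1-LNA replicate 2.

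Epcam, the epithelial adhesion molecule that defines many carcinomas (chr17:87635979-87651129, plus strand), was the exception among the members. Tumor-type barcodes gave only 38, 5, 26 and 57 UMIs of it, or 6.34, 4.82, 2.77 and 17.4 CPM. DC barcodes stood at 25.8, 37.4, 2.30 and 11.4 CPM, and B cell barcodes at 14.5, 15.8, 7.62 and 12.3 CPM. DC barcodes exceeded the tumor-type in both siCont libraries and lay below them in both siFXR1-LNA libraries.

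With the library as a block and TMM scaling, Epcam was lower in tumor-type than in DC barcodes (log2 difference -1.78, SE 0.52, adjusted p = 0.013) and lower than in B cells (-1.26, SE 0.38, adjusted p = 0.0225), where 30.9% and 29.4% of genes were lower. Neither call remained when counts were scaled to library totals alone, with -1.26 against DC (adjusted p = 0.0558) and -0.83 against B cells (adjusted p = 0.0935). Neither remained without siCont replicate 1 either, with -1.35 (adjusted p = 0.0959) and -1.05 (adjusted p = 0.132), and the call against B cells was also lost without siFXR1-LNA replicate 1. The share of DC barcodes with an Epcam UMI was 10.1%, 17%, 1.22% and 5.99% against 1.01%, 0.746%, 0.318% and 1.06% of macrophages at similar median depths of 5325, 8617, 5012 and 7822 UMIs against 5299, 8608, 5416 and 7820 UMIs. Epcam thus differed between immune types of the same depth within a library.

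**Figure D1:**
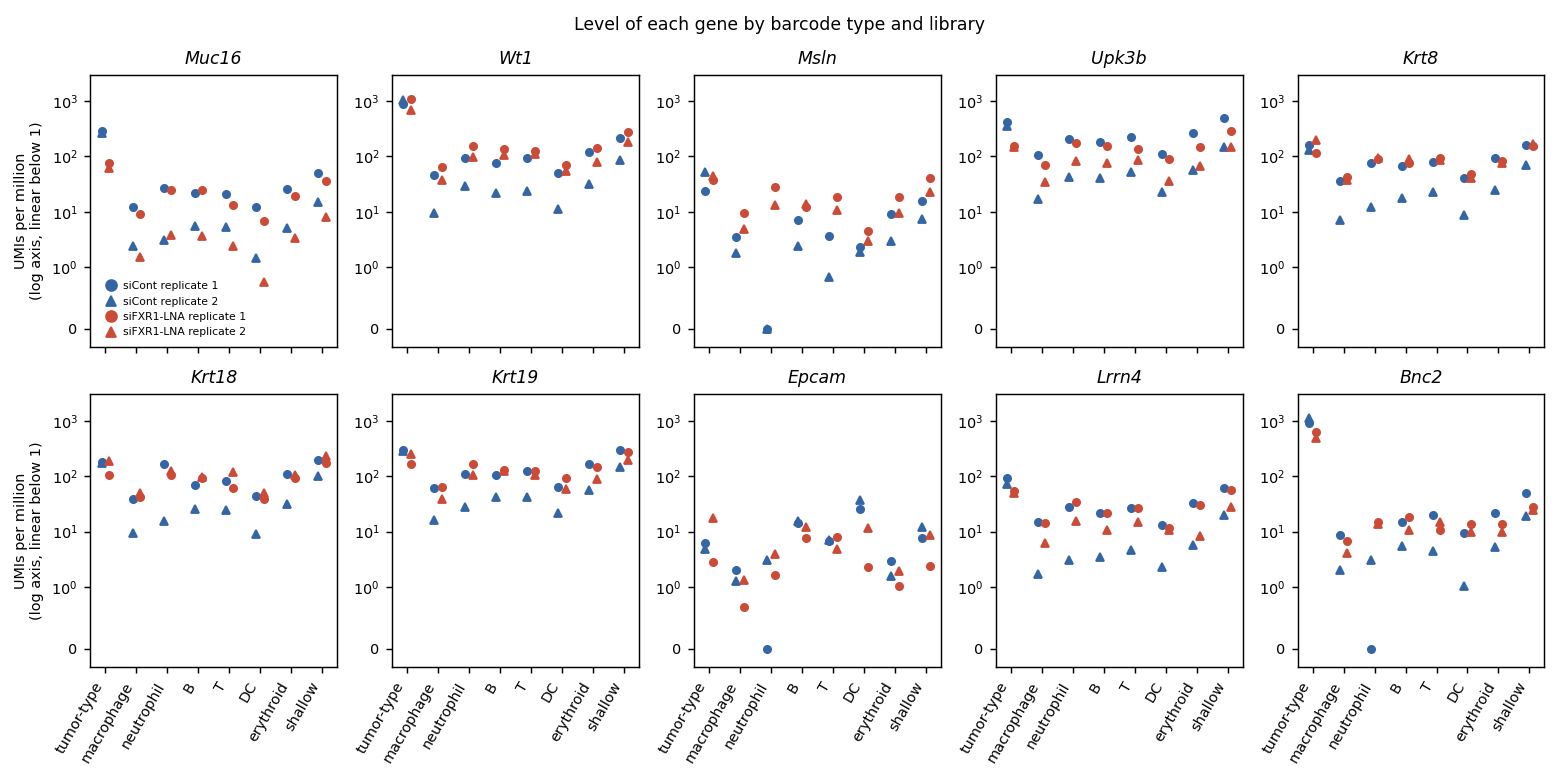
Level of each of the 10 genes in CPM (vertical axis, linear below 1 and logarithmic above) in 8 barcode types, with 1 point per library. Bnc2 in tumor-type barcodes lay between 483 and 1098 CPM and above every other type, while Upk3b in shallow barcodes lay above its tumor-type level in 3 of the 4 libraries.

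Macrophage, B cell and shallow barcodes carried Upk3b at similar numbers of UMIs per barcode, although their depths differed. Shallow barcodes, with under 1000 genes and median depths of 1263, 1159, 1239 and 1400 UMIs, are barcodes not called erythroid by hemoglobin. Upk3b gave a mean of 0.600, 0.171, 0.376 and 0.204 UMIs per shallow barcode. Macrophage barcodes, several times deeper, gave 0.604, 0.153, 0.414 and 0.287 Upk3b UMIs per barcode, and B cells 0.631, 0.169, 0.418 and 0.241. Neutrophils gave 0.682, 0.206, 0.527 and 0.280 and unassigned barcodes 0.751, 0.292, 0.644 and 0.328, above the shallow barcodes in every library. In each of these types siCont replicate 1 was above siCont replicate 2.

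The share of barcodes with an Upk3b UMI was also similar between several types. It was 42.2%, 13.6%, 32.2% and 22.7% in macrophages, 45.8%, 14.4%, 29.0% and 23.3% in T cells and 41.2%, 14%, 29.9% and 19.2% in erythroid barcodes, a type that should lack a uroplakin. Whether these shares reflect background or expression was not tested. Tumor-type barcodes exceeded them in every library, with 76.0%, 64.6%, 51.1% and 49.7% for Upk3b and 81.3%, 86.7%, 77.3% and 71.6% for Bnc2, against 4.53%, 1.74%, 3.93% and 3.25% for Bnc2 in macrophages.

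Krt19 was also alike in shallow and macrophage barcodes. It gave 0.357, 0.175, 0.350 and 0.272 UMIs per shallow barcode, 0.347, 0.144, 0.387 and 0.327 per macrophage barcode and 2.04, 2.57, 0.977 and 1.88 per tumor-type barcode. Muc16, by contrast, gave 0.0621, 0.0176, 0.0459 and 0.0108 UMIs per shallow barcode and 1.97, 2.46, 0.456 and 0.464 per tumor-type barcode. Each member thus gave more UMIs per tumor-type than per shallow barcode. For Epcam these were 0.0434, 0.0442, 0.0165 and 0.132 against 0.00921, 0.0145, 0.00308 and 0.012. Tumor-type barcodes are deeper by the rule on genes, at medians of 5987, 8927, 5143 and 6554 against 1263, 1159, 1239 and 1400 UMIs. The excess per barcode is therefore not a measure of level.

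In CPM, where the UMIs of a gene are scaled to the UMIs of all genes, the order changed. Upk3b reached 493, 145, 288 and 149 CPM in shallow barcodes, above the tumor-type level in 3 of the 4 libraries. Only Bnc2 (log2 difference 4.22, adjusted p = 0.000507), Muc16 (2.17, adjusted p = 0.00957) and Wt1 (1.89, adjusted p = 0.00462) were higher in tumor-type than in shallow barcodes under edgeR with TMM scaling, where 25.1% of genes were higher. Muc16 missed the threshold without siFXR1-LNA replicate 2 (2.10, adjusted p = 0.0514). The other 7 members ranged from -0.58 for Krt18 to 0.44 for Msln and did not pass the test, and Upk3b, Krt8, Krt19 and Epcam turned from below 0 to above 0 with library totals alone. Without siCont replicate 2, Upk3b (-0.92, adjusted p = 0.0135) and Krt18 (-0.93, adjusted p = 0.00915) were lower than in shallow barcodes.

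Erythroid barcodes gave a direction that depended on the scaling. With TMM scaling, Bnc2, Muc16 and Wt1 were higher in tumor-type than in erythroid barcodes, where 32.1% of genes were higher. Upk3b, Krt8, Krt18 and Krt19 were lower, by 1.02, 0.87, 1.06 and 0.92 on the log2 scale, where 34.8% of genes were lower. With library totals alone all 10 members were higher in tumor-type barcodes, but the share of all genes higher under that scaling is not given here. The change of scaling moved Upk3b from -1.02 to 1.09 and Msln from 0.01 to 2.12. Hemoglobin takes up at least 30% of the UMIs of an erythroid barcode by its definition.

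The make-up of the members' own UMIs set tumor-type barcodes apart from the rest without any scaling between types. Bnc2 took 28.1%, 31.6%, 26.0% and 22.6% of the UMIs of the 10 genes in tumor-type barcodes and 3.16%, 3.02%, 2.10% and 2.38% in shallow barcodes. Wt1 took 27.1%, 30.2%, 44.5% and 32.7% against 14.1%, 13.8%, 20.9% and 17.7%. Upk3b went the other way, with 12.8%, 10.0%, 6.46% and 6.85% in tumor-type against 31.9%, 23.3%, 21.8% and 14.6% in shallow barcodes.

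Summed over the 10 genes, the shares of shallow and tumor-type barcodes differed by 43.4, 50.6, 48.0 and 37.3 percentage points (the part of the UMIs that would have to change gene for the shares to match). Macrophage and shallow barcodes of the same library differed by only 2.28, 4.33, 1.77 and 2.71 points, and erythroid and shallow barcodes by 1.26, 5.13, 1.43 and 1.80 points. DC barcodes of siCont replicate 2 stood apart from the shallow ones by 30.2 points, and Epcam was the member in excess there.

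**Figure D2:**
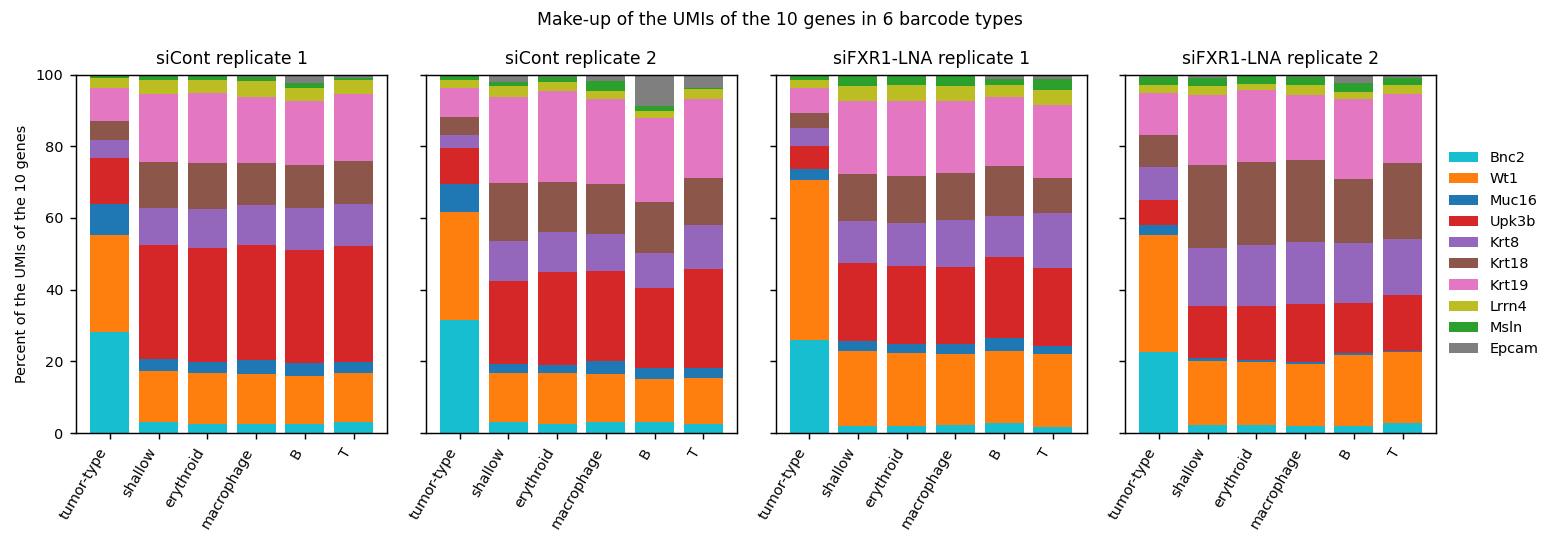
Percent of the UMIs of the 10 genes taken by each gene (vertical axis) in 6 barcode types, with 1 panel per library. Bnc2 took 22.6% to 31.6% in tumor-type barcodes and no more than 3.16% in shallow ones, and macrophage, erythroid and shallow bars of a library were nearly alike.

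Bnc2 and Wt1 were highest in the barcodes richest in the 3 genes of the rule, in all 4 libraries. Only barcodes with under 30% hemoglobin UMIs were binned here, so tumor-type barcodes with more hemoglobin are left out. Barcodes just outside, with 2 UMIs of those genes, numbered 270, 25, 527 and 196, and those just inside, with 3 UMIs, numbered 68, 4, 128 and 47. Bnc2 stood at 19.97, 0, 17.1 and 9.05 CPM just outside, at 56.2, 144, 33.4 and 11.5 CPM just inside, and at 1236, 1408, 797 and 695 CPM with 20 or more UMIs. Wt1 stood at 94.7, 29.9, 220 and 114.1 CPM just outside, at 225, 47.9, 238 and 152 CPM just inside and at 1121, 1297, 1292 and 897 CPM with 20 or more. Krt19 stood at 155, 120, 197 and 124 CPM just outside and at 506, 455, 217 and 322 CPM just inside. Epcam gave 8.36, 10.6, 1.71 and 2.80 CPM in barcodes with no UMI of the 3 genes and 4.83, 1.35, 0.757 and 12.6 CPM in those with 20 or more, lower in the latter in 3 of the 4 libraries.

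The keratins peaked between 3 and 19 UMIs of the 3 genes, in bins that differed between keratins and libraries. Krt19 stood at 626, 505, 273 and 370 CPM in barcodes with 10 to 19 UMIs of the 3 genes and at 209, 255, 123 and 195 CPM in those with 20 or more, higher in the former in all 4 libraries. Krt8 gave 284, 248, 208 and 284 CPM against 119, 103, 77.8 and 151 CPM in the same barcodes. In siCont replicate 2 the bin of 10 to 19 UMIs held only 12 barcodes. Krt18 had the same order in 3 libraries, with 372, 190 and 286 CPM against 136, 71.6 and 139 CPM in the others, and gave 171 against 174 CPM in siCont replicate 2. In that library Krt18 was highest, at 540 CPM, in the 5 barcodes with 5 to 9 UMIs.

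**Figure D3:**
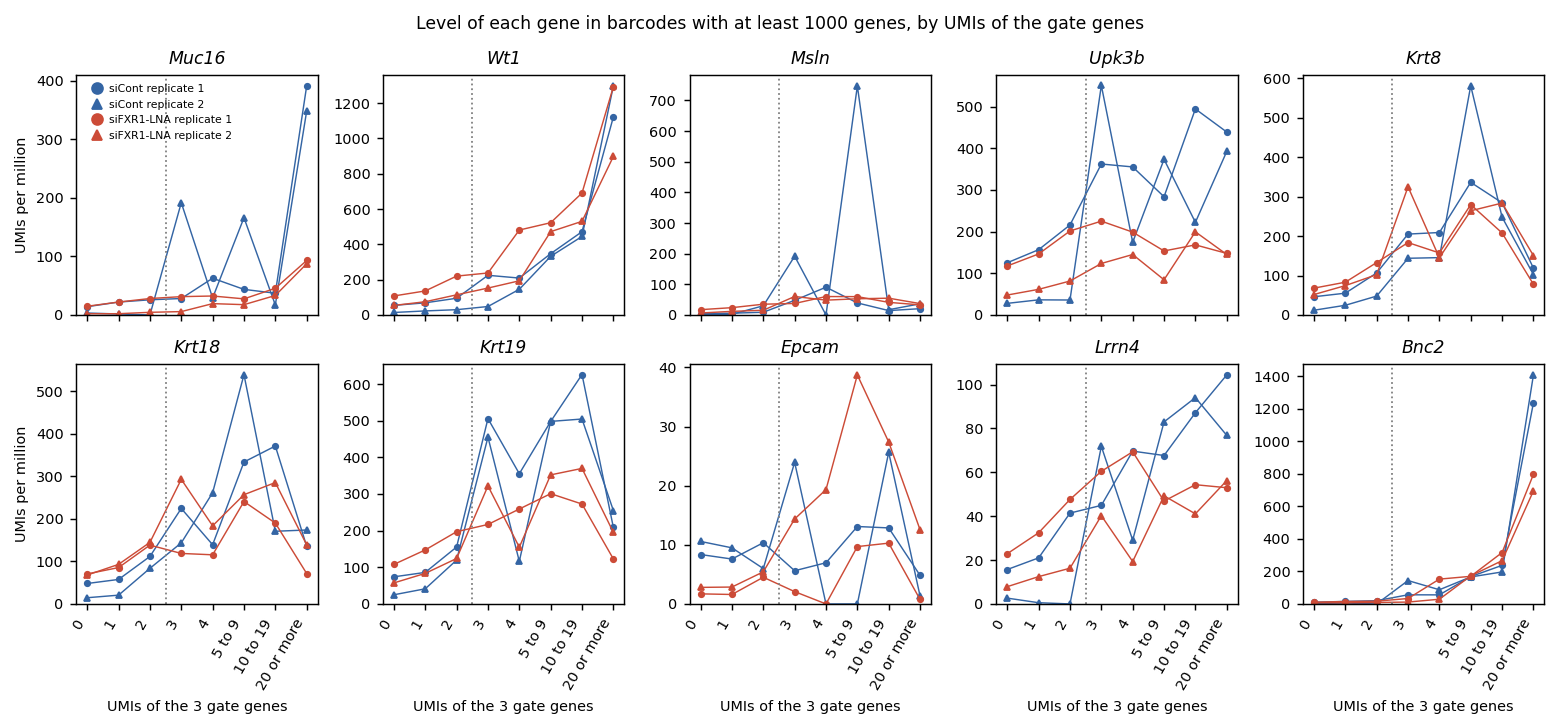
Level of each gene in CPM (vertical axis) in barcodes with at least 1000 genes, by their UMIs of Zfpm2, Kcnd2 and Tenm3 (horizontal axis), with 1 line per library and a dotted line at the limit of the rule. Bnc2 reached 695 to 1408 CPM with 20 or more UMIs, and Krt19 was higher at 10 to 19 UMIs than at 20 or more in all 4 libraries.

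Between the groups, Muc16 and Upk3b fell in tumor-type barcodes of the libraries labelled siFXR1-LNA, and the other 8 members did not pass the test. Muc16 gave 288 and 268 CPM (1726 and 278 UMIs) in siCont against 76.4 and 61.3 CPM (717 and 201 UMIs) in siFXR1-LNA. Both siFXR1-LNA values lay below both siCont values, with a log2 fold change of -1.96 (SE 0.25, adjusted p = 0.00224). Upk3b gave 422 and 348 CPM against 155 and 146 CPM, again without overlap (-1.31, SE 0.24, adjusted p = 0.0114). Both genes passed with each of the 4 libraries left out in turn, with changes from -2.20 to -1.74 for Muc16 and from -1.41 to -1.18 for Upk3b. The test called 8.63% of the 13229 genes, 5.2% lower and 3.43% higher, so 2 of 10 members lower stands beside a background of 5.2%.

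Both calls rested on the upper limit on genes per barcode. When barcodes above 4800 genes were kept and the mitochondrial limit stayed, the change of Muc16 was -1.16 (adjusted p = 0.175) and that of Upk3b was -0.66 (adjusted p = 0.483). With the gene limit in place and no mitochondrial limit, the changes were -1.96 (adjusted p = 0.00303) and -1.31 (adjusted p = 0.0115). The barcodes above 4800 genes numbered 143, 85, 97 and 257 and held 33.4%, 70.9%, 18.1% and 65.9% of all UMIs that met the rule. In them Muc16 stood at 174, 108, 146 and 88.0 CPM and Upk3b at 390, 349, 233 and 349 CPM, so the groups overlapped in both genes. Immune markers were present in 65.7%, 52.9%, 48.5% and 49.4% of these barcodes and fibroblast markers in 87.4%, 90.6%, 94.8% and 91.8%, and the part of doublets in this was not tested.

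Bnc2, Lrrn4 and Krt19 were lower in both siFXR1-LNA libraries than in both siCont libraries but missed the threshold. With 2 libraries against 2, an exact permutation test gives p = 0.333 for any gene separated in this way. The share of all genes so separated is not given here. Bnc2 gave 924 and 1098 against 624 and 483 CPM (log2 fold change -0.83, SE 0.29, adjusted p = 0.110), Lrrn4 gave 93.1 and 71.3 against 53.4 and 49.7 CPM (-0.64, SE 0.23, adjusted p = 0.119), and Krt19 gave 298 and 279 against 164 and 248 CPM (-0.47, SE 0.25, adjusted p = 0.288). Bnc2 passed with DESeq2 alone (adjusted p = 0.0419).

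The remaining members overlapped between the groups. Wt1 gave 892 and 1050 CPM against 1071 and 698 CPM (-0.09, SE 0.31), and Msln 24.2 and 53.0 against 36.9 and 43.9 CPM (0.20, SE 0.36). Krt8 gave 160 and 129 against 117 and 199 CPM, Krt18 182 and 175 against 104 and 189 CPM, and Epcam 6.34 and 4.82 against 2.77 and 17.4 CPM. In each of the 3, siFXR1-LNA replicate 2 was the highest library and siFXR1-LNA replicate 1 the lowest. Fewer cells rich in a transcript and less of it per cell cannot be told apart in these summed counts.

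**Figure D4:**
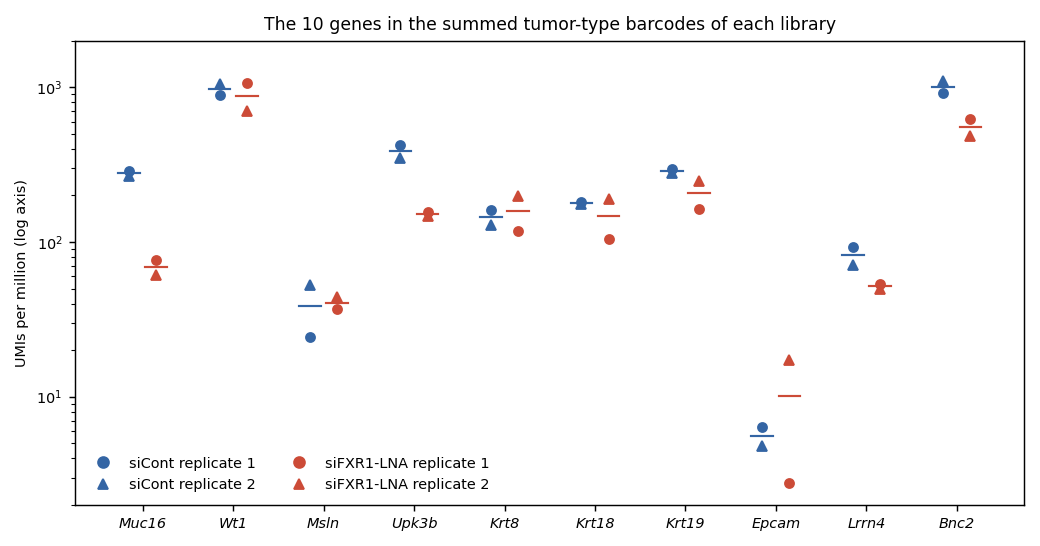
Level of the 10 genes in the summed tumor-type barcodes of each library, in CPM (vertical, log axis), with 1 point per library. Muc16 and Upk3b were separated between the groups (288 and 268 against 76.4 and 61.3 CPM for Muc16), while Wt1 and Epcam overlapped.

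Measured as shares of barcodes after thinning each to 2000 UMIs, the same genes moved. A Muc16 UMI was found in 34.4% and 31.5% of tumor-type barcodes of siCont and in 11.4% and 8.27% of those of siFXR1-LNA (33.0% ± 2.05 against 9.84% ± 2.22, SD, n = 2 each). Upk3b was found in 49.4% and 37.8% against 26.1% and 23.6%, and Bnc2 in 65.1% and 73.0% against 59.2% and 50.8%. The shares of Msln rose without overlap from 3.98% and 4.50% to 7.26% and 7.57%, though its level overlapped. With 2 libraries against 2, a two-sided exact permutation test cannot go below p = 0.333, which these 4 genes and Krt19 reached.

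Wt1 was found in most tumor-type barcodes and did not separate the groups, with 75.6% and 75.7% against 78.7% and 65.0% (exact permutation p = 1.00). Thinning left out 21, 2, 29 and 10 tumor-type barcodes with fewer UMIs. Without thinning the shares were 52.5%, 46.0%, 23.6% and 21.9% for Muc16 and 91.1%, 91.2%, 91.3% and 88.0% for Wt1.

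The same group comparison was made in 8 other types. In neutrophils Msln passed (8.47% of genes called), with 0 and 0 UMIs in 44 and 136 barcodes of siCont and 153 and 101 UMIs in 1782 and 2269 barcodes of siFXR1-LNA. No member passed in macrophages, where 18.5% of genes were called, nor in B cells (1.41%), T cells (1.69%), DC (1.49%), unassigned barcodes (4.42%), erythroid barcodes (2.72%) or shallow barcodes (0%, with 2501 of 13094 genes at an unadjusted p under 0.05). At an unadjusted p under 0.05, each of these types had at most 2 members. DESeq2 was not run for these types. Muc16 in macrophages gave 12.4 and 2.41 against 9.28 and 1.55 CPM, and the siCont libraries differed from each other more than the groups did.

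Whether the change of Muc16 in tumor-type barcodes exceeded that in another type was tested as an interaction. Against macrophages the difference of the changes was -1.59 (adjusted p = 0.393, 0.636% of genes called) and against shallow barcodes -1.65 (adjusted p = 0.529, 0% called). No member passed against these types, or against B cells (0.0142% called), T cells (0.0152%), unassigned barcodes (0.00728%) or erythroid barcodes (0%), where at most 7 members per type stood at an unadjusted p under 0.05. Muc16 passed against neutrophils (-2.43, adjusted p = 0.011, 2.38% of genes lower), together with 7 other members. The siCont libraries held only 44 and 136 neutrophil barcodes, with 4 and 2 UMIs of Muc16.

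The group change of Epcam differed between tumor-type and DC barcodes, although neither change passed on its own. Epcam gave 123 and 181 UMIs in DC of siCont against 1 and 15 UMIs in DC of siFXR1-LNA, from 863 and 547 against 82 and 167 barcodes. The change was -1.90 in DC (adjusted p = 0.0968) and 0.69 in tumor-type barcodes (adjusted p = 0.619, with overlapping groups), while the difference between the changes in tumor-type and DC barcodes did (3.05, adjusted p = 0.0374, 0.29% of genes higher).

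Other mesothelial genes, taken from a list that leaves out the members, lay mostly lower in siFXR1-LNA. Of 17 listed genes 16 were tested, 13 with a log2 fold change below 0 and 3 above. Past the threshold 1 rose and 2 fell, while DESeq2 called 1 higher and 4 lower. The median log2 fold change was -0.88 beside -0.01 over all genes tested. Rspo1, a secreted Wnt pathway agonist, fell from 146 and 152 CPM to 32.9 and 56.4 CPM (-1.73, adjusted p = 0.00605), and Nkain4, a membrane gene, fell from 87.3 and 76.1 CPM to 35.3 and 34.8 CPM (-1.19, adjusted p = 0.0133). Pdpn, the membrane glycoprotein podoplanin, rose from 80.9 and 79.0 CPM to 187 and 138 CPM (1.07, adjusted p = 0.0315). In each of these genes the groups did not overlap, and the background of genes called was 8.63%. The share of all genes without overlap is not given here. Keeping barcodes above 4800 genes ended the calls of Muc16 and Upk3b, and the changes of these other genes under that setting are not given.

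Of 18 genes of ovarian and Müllerian identity, 9 were counted often enough to be tested and 2 fell, beside 5.2% of all genes. DESeq2 called 1 gene of this list lower. Esr1 fell from 113 and 85.8 CPM to 29.2 and 22.3 CPM (-1.90, adjusted p = 0.00349), and the surface glycoprotein gene Cd24a fell from 49.6 and 65.5 CPM to 28.8 and 25.3 CPM (-1.01, adjusted p = 0.0435). The changes of Esr1 and Cd24a with barcodes above 4800 genes kept are not given here either. The list's median was -0.52. Of 19 genes of epithelial junctions and keratins, 9 were tested and none passed with edgeR, with 1 at an unadjusted p under 0.05 and 0 called by DESeq2, beside 8.63% of all genes called by edgeR. Tjp1, a tight junction scaffold, gave 210.5 and 210.1 against 199 and 206 CPM, and the claudin gene Cldn3 gave 59.1 and 38.5 against 68.4 and 68.9 CPM.

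Of 14 genes of mesenchymal state 11 were tested, with a median of -0.38, and the collagen gene Col3a1 was the only one to pass, beside a background of 8.63% (75.9 and 309 against 12.1 and 45.7 CPM, log2 fold change -2.77, adjusted p = 0.0401). Its siCont libraries differed by several times, and its change with barcodes above 4800 genes kept is not given here. Kcnd2, a potassium channel gene used to choose the barcodes, also differed between the groups, at 6070 and 6495 against 2523 and 2233 CPM. With Kcnd2 left out of the rule, Muc16 (-2.02, adjusted p = 0.0015) and Upk3b (-1.32, adjusted p = 0.00934) still passed. Zfpm2 and Tenm3, the other genes of the rule, gave changes of 0.49 and -0.15.

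At a common depth, some pairs of members were found together in tumor-type barcodes and a few were found apart, but the latter depended on the thinning. Co-detection was measured as the odds ratio of finding a UMI of both genes in the same barcode after thinning to 2000 UMIs, per library and with no test. The 9 pairs with Epcam are not counted, since no thinned barcode of siCont replicate 2 held an Epcam UMI and the odds ratios there come from the 0.5 added to each cell. Of the other 36 pairs, 16 lay above 1 in all 4 libraries and 3 below 1 in all 4. Thinning to 1000 UMIs gave 13 and 2, thinning to 4000 UMIs gave 21 and 2, and without thinning 32 lay above and 0 below.

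Bnc2 was found with Wt1 and with Muc16 more often than the product of their shares. Wt1 and Bnc2 shared 1486 barcodes against 1340 from the product, with odds ratios from 2.53 to 5.00. Muc16 and Bnc2 shared 431 against 339 (odds ratios from 1.30 to 6.23), and Muc16 and Upk3b 272 against 213 (1.59 to 3.83). Krt8 and Krt18, the keratins that pair in 1 filament, shared 164 barcodes against 103 (1.86 to 5.96).

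The 3 pairs found apart at 2000 UMIs each joined a keratin to Bnc2 or Muc16. Krt8 and Bnc2 shared 255 barcodes against 314 from the product, with odds ratios from 0.277 to 0.723 over the 4 libraries. Krt18 and Bnc2 shared 287 against 336 (0.536 to 0.914), and Muc16 and Krt8 83 against 98.6 (0.747 to 0.950). In macrophage barcodes 26 of the 36 pairs lay above 1 in all 4 libraries and none below.

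**Figure D5:**
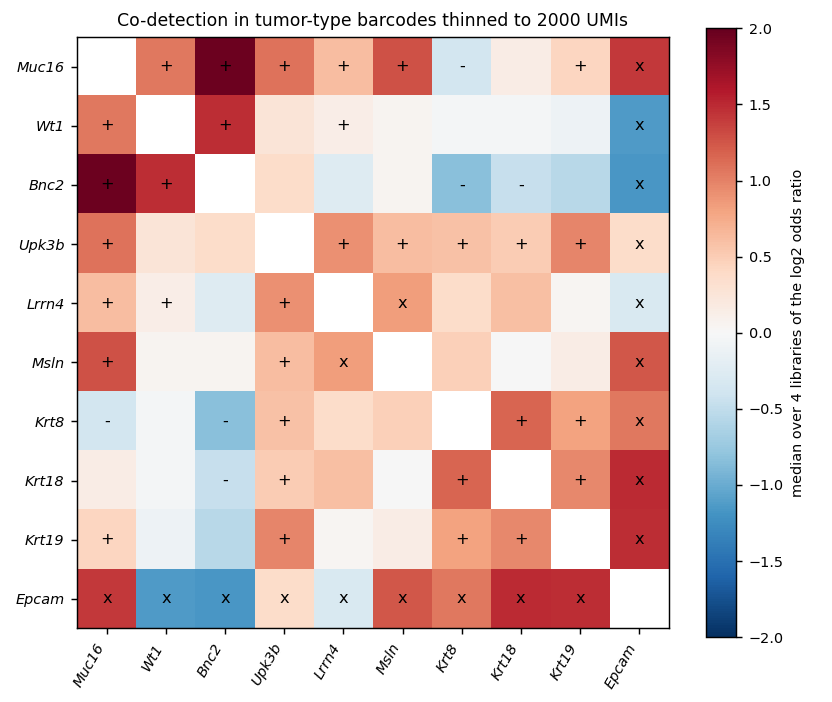
Co-detection of each pair of the 10 genes in tumor-type barcodes thinned to 2000 UMIs, as the median over 4 libraries of the log2 odds ratio (colour). Wt1, Bnc2 and Muc16 were found together, as were the keratins, while Krt8 and Krt18 lay below 0 with Bnc2, and each pair with Epcam rests on 10 or fewer shared barcodes.

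Fibroblast markers moved with the keratins, and also with Upk3b, Msln and Lrrn4, in the same barcodes. Dcn alone gave 2352, 525, 4882 and 1508 of the 3405, 1308, 5261 and 2139 UMIs of the fibroblast list in tumor-type barcodes. A split by this list thus rests in large part on Dcn, and whether it marks fibroblasts was not tested. At least 3 UMIs of the fibroblast list were present in 36.7%, 37.2%, 46.0% and 42.7% of tumor-type barcodes. Krt19 stood at 480, 495, 202 and 360 CPM in these and at 124, 93.4, 119 and 124 CPM in the remaining ones, and Krt8 at 258, 193, 154 and 281 against 66.9, 73.6, 74.9 and 108 CPM. Upk3b stood at 537, 538, 187 and 174 against 312, 183, 119 and 115 CPM, and Msln and Lrrn4 had the same order. Bnc2 had the opposite order, with 774, 1033, 585 and 396 CPM against 1067, 1153, 670 and 578 CPM, as had Wt1. These orders held in all 4 libraries, while Muc16 and Epcam had no common order. The marked barcodes were deeper, at medians of 8628, 11527.5, 6295 and 8955 against 4972.5, 7857, 4453 and 5235 UMIs. Whether depth bears on the split was not tested. Without the fibroblast-marked barcodes, Krt8 and Bnc2 stayed below 1 in all 4 libraries (odds ratios of 0.869, 0.394, 0.538 and 0.756), whereas Krt18 and Bnc2 no longer did (0.913, 1.52, 0.801 and 1.21) and Muc16 and Krt8 did not either (0.890, 0.752, 0.461 and 1.44). Krt8 and Krt18 then lay at 0.807, 6.06, 2.40 and 2.59, on 8, 5, 24 and 16 shared barcodes. Without the fibroblast-marked barcodes the group change was -2.18 for Muc16 (adjusted p = 0.00023) and 0.14 for Krt19.

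A tumor-type barcode thinned to 2000 UMIs held a mean of 3.11, 2.95, 2.47 and 2.41 of the 10 members. A macrophage barcode held 0.669, 0.153, 0.737 and 0.597. At least 5 members were found in 18.3%, 16.2%, 4.99% and 8.04% of tumor-type barcodes, and none in 4.57%, 4.50%, 3.57% and 6.86%. The members' side was read only in barcodes within the upper limits that were neither shallow nor at the hemoglobin level that defines erythroid ones. Of these, 412, 68, 412 and 130 barcodes held at least 20 member UMIs before thinning. Tumor-type barcodes made up 95.6%, 89.7%, 98.3% and 90.8% of them. Barcodes outside this set were not counted, so the shares hold for this set only.

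Cycling barcodes, with at least 2 UMIs of the proliferation genes Mki67 and Top2a, numbered 129, 5, 38 and 6 of the tumor-type, or 14.7%, 4.42%, 2.42% and 1.39%. In cycling barcodes Muc16 stood at 316, 236, 183 and 197 CPM, and in non-cycling ones at 282, 270, 72.3 and 59.6 CPM. In both siFXR1-LNA libraries Muc16 was higher in the cycling barcodes, of which siFXR1-LNA replicate 2 had only 6.

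The genes whose levels ran most like each member were read over 36 sums, 9 types in 4 libraries, among 10956 genes, as Pearson's r of log2(CPM + 1). These sums share libraries and depth, so the values are a description. Wt1 ran with Wwtr1, Nfib and Gxylt2 (r = 0.99 each), and Bnc2 with Wt1os (0.99), Arhgef17 and Etl4. Muc16 ran with the elastin gene Eln (0.95), Podxl and Platr16, and Msln with Gpr37 (0.93), Sdsl and Ccn1. Upk3b ran with Prcd (0.97), Ldhb and Nkain4, and Lrrn4 with the retinoic acid enzyme gene Aldh1a1 (0.98), Cst12 and Akr1cl.

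Krt8 and Krt18 ran with each other (0.97), with Akr1b8 and with the collagen chaperone gene Serpinh1, and Krt19 with Amhr2 (0.97), the receptor of anti-Müllerian hormone, Krt8 and Cavin1. Epcam stood alone, with no r above 0.78 (Cyb561a3, Cd200 and Gabbr1), and its r with the other 9 members lay between -0.10 and 0.12.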

How the data were processed

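Ascites cells of 4 pooled samples had been run on a 10x 3' platform. The labels name the v2 chemistry and the methods the v3.1 chemistry, and the submitters' processing notes give Cell Ranger 7.0.0 with mm10 while the methods name a later version. Whether intronic reads were counted is not given in the sources used here. The deposited values were raw UMI counts per gene and barcode, which the authors had not normalized.

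From these counts, the limits of the study's methods were kept: 100 to 4800 genes per barcode and no more than 15% of UMIs from mitochondrial genes. Those with at least 1000 genes and 3 UMIs of Zfpm2, Kcnd2 and Tenm3 were called tumor-type, whatever their hemoglobin. Of the others, those with at least 30% hemoglobin UMIs were called erythroid. Remaining barcodes with at least 1000 genes were named by the immune marker list with the most UMIs (at least 3), or left unassigned. The rest were shallow. No doublet caller was run. Leaving out tumor-type barcodes with immune markers was tried as an alternative. Barcode sequences shared between libraries numbered 0 to 2 among tumor-type barcodes. The study's own analysis left out a siFXR1-LNA replicate with fewer reads, which the labels do not name, and both replicates were used here.

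UMI counts were summed per library and type and tested with edgeR 4.0.16 (quasi-likelihood, TMM, filterByExpr, Benjamini-Hochberg adjustment over all genes tested, threshold 0.05) in R 4.3.3, with the library as a block between types, and with DESeq2 1.42.0 as an alternative. Shares and co-detection were taken after thinning each barcode to 2000 UMIs, with 0.5 added to each cell of an odds ratio. The code was tested on simulated counts. Libraries held 78179267 to 113606837 UMIs. Coordinates are from GENCODE for GRCm38. UMIs come from transcript ends, so levels were not compared between genes.

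The 10 members were named by symbol, as were Fxr1, the genes of the rule and, per list, the 2 largest rises and 2 largest falls past the threshold or else the 2 highest genes. The members and lists were chosen with earlier results of these data known. The p-values measure the spread between pools only.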

Additional observations from a re-analysis of the deposited data

Results flagged for a closer look

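The group change differed between tumor-type and neutrophil barcodes for 8 members by the test of the difference itself, where 2.38% of genes were lower. On the log2 scale, the change in tumor-type minus that in neutrophil barcodes was -2.43 for Muc16, -1.80 for Upk3b, -2.10 for Lrrn4, -3.49 for Bnc2, -1.61 for Krt8, -1.46 for Krt18, -1.94 for Krt19 and -9.80 for Msln. The neutrophil sums of siCont came from 44 and 136 barcodes and held 103 and 91 UMIs of the 10 members in all. They held 0 and 2 UMIs of Bnc2 and 0 and 0 of Msln, so the fitted value of Msln depends on the prior count and is no measured fold. Neutrophil barcodes of siFXR1-LNA numbered 1782 and 2269.

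The group change of Epcam also differed between tumor-type and DC barcodes, by 3.05, although neither change passed on its own (0.69, adjusted p = 0.619, and -1.90, adjusted p = 0.0968, edgeR). The DC sums of siFXR1-LNA held 1 and 15 Epcam UMIs.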

How the results depend on the processing

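Of 18 alternatives, Muc16 and Upk3b passed in 16 each. Dropping both upper limits ended both calls (-1.17 and -0.68), put Wt1 at 0.25 and left 62 genes higher and 52 lower, against 454 and 688. Dropping the gene limit alone also ended them (-1.16 and -0.66), put Wt1 at 0.24 and Krt18 at 0.025, and left 66 and 64. Without a filter on low counts 888 and 1269 genes passed. The replicate numbers do not pair the samples by their labels, and the deviations of same-numbered libraries had r = 0.01 and Spearman's rho -0.11 over 13229 genes. A replicate block gave 666 genes higher and 1107 lower, and crossed pairing 378 higher and 433 lower. Leaving out 1 library gave 193 to 777 higher and 391 to 869 lower, with changes from -0.49 to 0.27 for Wt1, -0.41 to 0.82 for Msln, -0.18 to 0.43 for Krt8, -0.65 to 0.066 for Krt18 and -0.93 to 1.55 for Epcam, none past the threshold.

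Without immune-marked barcodes Msln was -0.13, and without fibroblast-marked ones Krt19 was 0.14 and Epcam -0.84. Scaling to library totals gave 10 members higher and 0 lower than erythroid barcodes, 5 higher than unassigned ones (3 with TMM), and 0 lower than B cells and 0 lower than DC. With at least 2000 genes per barcode 5 members were higher than unassigned barcodes and 0 lower than B cells. With 1 library left out, 3 to 8 members were higher than neutrophils and 3 to 6 higher than unassigned barcodes, and 0 to 1 were lower than B cells, DC or unassigned barcodes and 0 to 2 lower than shallow barcodes. The shares of all genes called between types under these alternatives are not given here.

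Differences in the share of barcodes between the groups were 0.743 points for Wt1 at 4000 UMIs, -0.691 for Krt18 at 1000 and -0.147 at 4000 UMIs, and -0.378 for Epcam at 1000, against -3.82, 1.499 and 0.959 at 2000. Leaving out 1 library gave -10.6 to 3.00 for Wt1, -4.34 to 4.84 for Krt8 and -3.54 to 6.54 for Krt18. Over all 45 pairs, Epcam included, 20 lay above an odds ratio of 1 in all libraries and 5 below, and without thinning 39 and 0. Pairs below numbered 2 at 1000 UMIs, 3 at 4000 and 2 without fibroblast-marked barcodes. The cause of these shifts was not tested. With 2 libraries a group, shares could not pass an exact test. The alternatives with crossed pairing, with 1 upper limit dropped, without Kcnd2 in the rule and without fibroblast-marked barcodes, and the pair counts without Epcam, were chosen after seeing the data.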
